A study of Mus musculus with 6 samples.

Results

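The genes described here are 10 components of the Notch pathway, chosen by name from the 22609 genes counted: the receptors Notch1, Notch2 and Notch3, the ligands Jag1, Jag2 and Dll4, and the target genes Hes1, Hey1, Heyl and Nrarp. They were measured by RNA sequencing in primary hepatocytes of the mouse, that is, parenchymal liver cells kept in culture after isolation. The cells came from male wild-type C57BL/6 mice aged 4 months. One group of 3 samples received LRG1 protein (leucine-rich alpha-2-glycoprotein 1, a secreted glycoprotein) at 20 µg/mL, and the other group of 3 samples received phosphate-buffered saline (PBS), each for 16 h. The study concerns LRG1 in obesity, with its fatty liver and insulin resistance, and the comparison asks which transcripts differ in hepatocytes exposed to the protein. The labels do not state whether replicates are distinct mice or cultures. The p-values therefore reflect the spread among these 6 libraries alone, and that spread could be technical.

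Notch signalling passes between touching cells. A ligand of the Jagged or Delta-like type on one cell binds a Notch receptor on its neighbour, an ADAM protease and then gamma-secretase cut the receptor, and the freed intracellular domain enters the nucleus, where it joins the DNA-binding protein RBPJ and a Mastermind coactivator to switch on Hes and Hey repressors and the feedback inhibitor Nrarp. In the liver the pair of Jag1 and Notch2 is known for its part in bile duct formation, and loss of either gene's function in humans causes Alagille syndrome, in which bile ducts are sparse.

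In hepatocytes given LRG1, Jag1 was 2.65-fold higher and Notch2 1.401-fold higher, while Notch1 was 1.39-fold lower, all relative to PBS. Hes1 was higher by only 1.15-fold, with a call that did not hold under every alternative, and Dll4 did not pass the threshold. Of the 10 genes, 5 had enough reads to be tested, namely Notch1, Notch2, Jag1, Dll4 and Hes1. The other 5, Notch3, Jag2, Hey1, Heyl and Nrarp, were nearly silent in both groups, with 0 to 17 reads in any library. Of the 5 tested genes, 3 were higher and 1 was lower at an adjusted p below 0.05 (edgeR's quasi-likelihood test, Benjamini-Hochberg adjusted over the 12301 genes tested). Across all tested genes 51.4% passed that threshold, 25.5% higher and 25.8% lower with LRG1, so a called gene is common in this comparison and the members' count is read against that share. The LRG1 and PBS values of 4 of the 5 tested genes did not overlap, beside 57.6% of all tested genes. With a log2 fold change of at least 0.58 required as well, 1 of the 5 was higher (Jag1) and 0 were lower, beside 7.53% and 10.7% of all tested genes. The median log2 fold change of the 5 tested genes was 0.20, beside 0.0093 for all tested genes. The 10 genes were chosen with earlier results of these data known, so such comparisons are descriptive.

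The libraries held 18625748 to 23036332 reads in genes. No 2 replicates looked like a single library, since chi-square values per degree of freedom were 2.89 to 4.15 between them. The hepatocyte marker Alb was among the most abundant transcripts, at 18555.3 CPM with LRG1 and 19234.9 CPM with PBS (CPM, read counts divided by library size and scaled by edgeR's TMM factors), and did not pass. Of the 6 hepatocyte markers, 0 were higher, 4 were lower with LRG1 and 2 did not pass. The lower ones were Cps1, 4.33-fold lower at 8.44 CPM with LRG1 and 36.3 CPM with PBS, Apoa1, 1.54-fold lower, and Apoh and Ass1, each 1.13-fold lower. The summed level of 10 endothelial markers was 49.5 to 54.6 CPM in the LRG1 libraries and 56.7 to 61.4 CPM in the PBS libraries. That of 8 stellate cell or fibroblast markers was 16.4 to 19.3 CPM with LRG1 and 18.0 to 22.4 CPM with PBS. Of the 5 of these that were tested, Reln was 1.86-fold lower with LRG1 (edgeR adjusted p = 0.00558) and 4 did not pass. Among those too low to test, Lrat had 1 read with LRG1 and 20 with PBS, Lum 15 and 21, and Colec11 6 and 5. The 9 Kupffer cell or macrophage markers summed to 181 to 206 CPM with LRG1 and 222 to 266 CPM with PBS, and nearly all of that was Cd68, at 184 CPM with LRG1 and 235.5 CPM with PBS. Of the 7 that were tested, Marco was higher, Cd68 and Cd5l were lower and 4 did not pass. The 4 smooth muscle markers summed to 181 to 222 CPM with LRG1 and 182 to 186 CPM with PBS, with Tagln and Acta2 higher and Cnn1 and Myh11 lower. Counts of called markers are read against 25.5% higher and 25.8% lower among all tested genes. In bulk samples such as these, fewer cells of a type and less RNA per cell cannot be told apart.

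The promoter windows of the 3 tested genes with the firmest changes are shown for reference, because Jag1 and Notch2 moved one way and Notch1 the other. Each window runs from 250 bases before the annotated start site to 50 bases after it and is printed 5′ to 3′ on the gene's strand (RefSeq, GRCm38.p6). Capitals mark matches on either strand to the letters searched, CAGAC (bound by SMAD proteins), CACNAG (the N-box bound by Hes proteins), TGGGAA and GTGGGAA (RBPJ, the longer one containing the shorter) and TGANTCA (AP-1).
Jag1, chr2:137116471-137116770, minus strand: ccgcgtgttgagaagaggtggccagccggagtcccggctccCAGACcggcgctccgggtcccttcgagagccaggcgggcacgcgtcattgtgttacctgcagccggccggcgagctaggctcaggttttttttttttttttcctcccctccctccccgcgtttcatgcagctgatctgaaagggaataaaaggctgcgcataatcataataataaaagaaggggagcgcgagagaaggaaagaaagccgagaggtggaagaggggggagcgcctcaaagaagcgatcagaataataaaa
Notch2, chr3:98013288-98013587, plus strand: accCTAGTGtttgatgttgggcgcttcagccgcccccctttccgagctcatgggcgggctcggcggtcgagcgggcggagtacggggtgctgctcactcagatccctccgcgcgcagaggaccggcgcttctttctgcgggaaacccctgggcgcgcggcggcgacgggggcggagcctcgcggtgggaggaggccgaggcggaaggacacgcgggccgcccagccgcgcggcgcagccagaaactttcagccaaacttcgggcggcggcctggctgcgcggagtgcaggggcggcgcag
Notch1, chr2:26503773-26504072, minus strand: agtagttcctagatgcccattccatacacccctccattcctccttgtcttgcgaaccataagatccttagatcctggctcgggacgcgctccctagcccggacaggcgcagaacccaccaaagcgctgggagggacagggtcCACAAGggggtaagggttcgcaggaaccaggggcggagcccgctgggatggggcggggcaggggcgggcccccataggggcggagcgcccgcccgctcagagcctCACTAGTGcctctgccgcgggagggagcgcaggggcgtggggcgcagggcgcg
The Jag1 window held 1 CAGAC match, starting at position -209 from the start site, and none of the other motifs. The Notch2 window held 1 N-box match, at -247, and the Notch1 window held 3, at -108, -3 and -1, of which the last pair overlap on opposite strands. None of the 3 windows held TGGGAA or TGANTCA. Among all 32851 windows in the table, 49.6% held CAGAC, 42.5% CACNAG, 25.6% TGGGAA, 6.38% GTGGGAA and 7.81% TGANTCA, so matches of the kind seen here are frequent. Of the 10 genes, 7 had a window in the table. The GC content of the window was 55.7% for Jag1, 73.0% for Notch2 and 68.3% for Notch1, against a median of 52.7% over all windows.

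Among the receptors, Notch2 was the most abundant. It had 172, 177 and 167 CPM in LRG1 replicates 1 to 3 and 132, 115 and 121 CPM in PBS replicates 1 to 3. Each LRG1 library lay above each PBS library. The means were 171.8 ± 5.23 CPM with LRG1 and 122.6 ± 8.46 CPM with PBS (SD, n = 3 each), a log2 fold change of 0.49 (SE 0.046, edgeR adjusted p = 4.69e-09). Notch2 shares 5.02% of its exonic length with Gm42820 on the same strand, a gene that has no row in the files.

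Notch1, the receptor that also acts in many tissues outside the liver, moved the other way. It had 42.5, 41.5 and 35.6 CPM in LRG1 replicates 1 to 3, against 60.2, 53.9 and 51.6 CPM in PBS replicates 1 to 3. The groups did not overlap, with every LRG1 library below every PBS library. The log2 fold change was -0.47 (SE 0.067, edgeR adjusted p = 2.9e-06). Notch1 overlaps the genes 0610009E02Rik and Gm13568 on the opposite strand along 7.5% and 2.91% of its annotated exonic length. The counting is not stated to use strand, so reads there cannot be assigned with certainty.

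Notch3, known from vascular smooth muscle and stellate cells, was essentially unread. It had 2, 0 and 1 reads in LRG1 replicates 1 to 3 and 2, 1 and 2 reads in PBS replicates 1 to 3. With 3 reads in the LRG1 group and 5 in the PBS group, the ratio corrected for library size was 0.544, with an exact 95% counting interval of 0.0844 to 2.79. Such intervals cover counting error only. A difference of the size seen for the other receptors was not detectable at this depth.

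Notch4, the receptor best known from endothelium, is outside the 10 genes but completes the receptor family. It had 4.28, 4.19 and 4.38 CPM in LRG1 replicates 1 to 3 and 2.28, 2.05 and 2.07 CPM in PBS replicates 1 to 3. The groups were well apart, and the log2 fold change was 1.003 (SE 0.17, edgeR adjusted p = 1.98e-05). Of the 10 endothelial markers, 9 were tested, and 2 of them, Stab2 and Lyve1, were lower with LRG1 while none was higher. Cdh5, the endothelial cadherin, had 17.0 ± 1.22 CPM with LRG1 and 16.1 ± 0.447 CPM with PBS (SD, n = 3 each) and did not pass (log2 fold change 0.082, edgeR adjusted p = 0.429).

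Levels of different genes were compared only after division by transcript length, taken from GENCODE M21 as the longest transcript of its basic set, and are given as CPM per kb. On this scale the 4 receptors summed to 21.2 ± 0.83 CPM per kb with LRG1 and 17.8 ± 1.2 CPM per kb with PBS (SD, n = 3 each). The Notch2 share of that sum was 76.1%, 77.1% and 78.2% in LRG1 replicates 1 to 3 and 65.2%, 64.6% and 66.6% in PBS replicates 1 to 3. The groups did not overlap, and the difference of means was 11.7 percentage points (exact permutation test, two-sided p = 0.10, the smallest that 3 against 3 samples allow). The Notch1 share was 19.8% ± 1.2 with LRG1 and 32.7% ± 1 with PBS (SD, n = 3 each). The ratio of Notch2 to Notch1 in CPM per kb was accordingly 3.91 ± 0.29 with LRG1, against 2.01 ± 0.097 with PBS (SD, n = 3 each).

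Jag1, the ligand tied to bile duct formation, changed more than any other tested gene of the 10. It had 107, 111 and 119 CPM in LRG1 replicates 1 to 3 and 46.5, 39.1 and 41.1 CPM in PBS replicates 1 to 3. The lowest LRG1 library lay far above the highest PBS library. The log2 fold change was 1.41 (SE 0.058, 95% interval 1.29 to 1.53, edgeR adjusted p = 1.27e-15). Ordered from the most raised gene down, Jag1 stood at place 304 of 12301 tested genes and Notch2 at place 1191.

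Dll4, a Delta-like ligand best known from endothelial cells, was low. It had 3.69, 2.68 and 3.68 CPM in LRG1 replicates 1 to 3 and 3.34, 2.16 and 3.61 CPM in PBS replicates 1 to 3. The groups overlapped, with 1 library in each group lower than its other 2. The log2 fold change was 0.13 (SE 0.20, edgeR adjusted p = 0.616), and its 95% interval of -0.28 to 0.53 leaves out a change as large as that of Jag1. Dll4 overlaps Gm14207 on the opposite strand along 5.56% of its exonic length, and that gene had no more than a stray read.

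Jag2, the second Jagged ligand, was read 5, 4 and 5 times in LRG1 replicates 1 to 3 and 6, 8 and 11 times in PBS replicates 1 to 3. Its LRG1 counts all lay below its PBS counts. The group sums were 14 reads with LRG1 and 25 with PBS, which is a ratio of 0.507 (exact 95% interval 0.244 to 1.01). It was not part of the test across genes, and without the filter on low counts its edgeR adjusted p was 0.174 at a log2 fold change of -0.96.

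Together with Dll1 and Dll3, the ligands summed to 21.5 ± 1.1 CPM per kb with LRG1 and 8.86 ± 0.83 CPM per kb with PBS (SD, n = 3 each). The Jag1 share of this sum was 92.6%, 92.5% and 92.9% in LRG1 replicates 1 to 3 and 85.6%, 87.0% and 82.1% in PBS replicates 1 to 3. The difference of means was 7.77 percentage points (exact permutation test, two-sided p = 0.10, again the smallest possible). The ratio of the ligand sum to the receptor sum was 1.02 ± 0.091 with LRG1 and 0.497 ± 0.023 with PBS (SD, n = 3 each). Dll1, a Delta-like ligand outside the 10 genes, had 2.29 ± 0.690 CPM with LRG1 and 1.57 ± 0.282 CPM with PBS (SD, n = 3 each). It did not pass (log2 fold change 0.56, edgeR adjusted p = 0.0543), and it overlaps A930024N18Rik on the opposite strand.

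**Figure D1:**
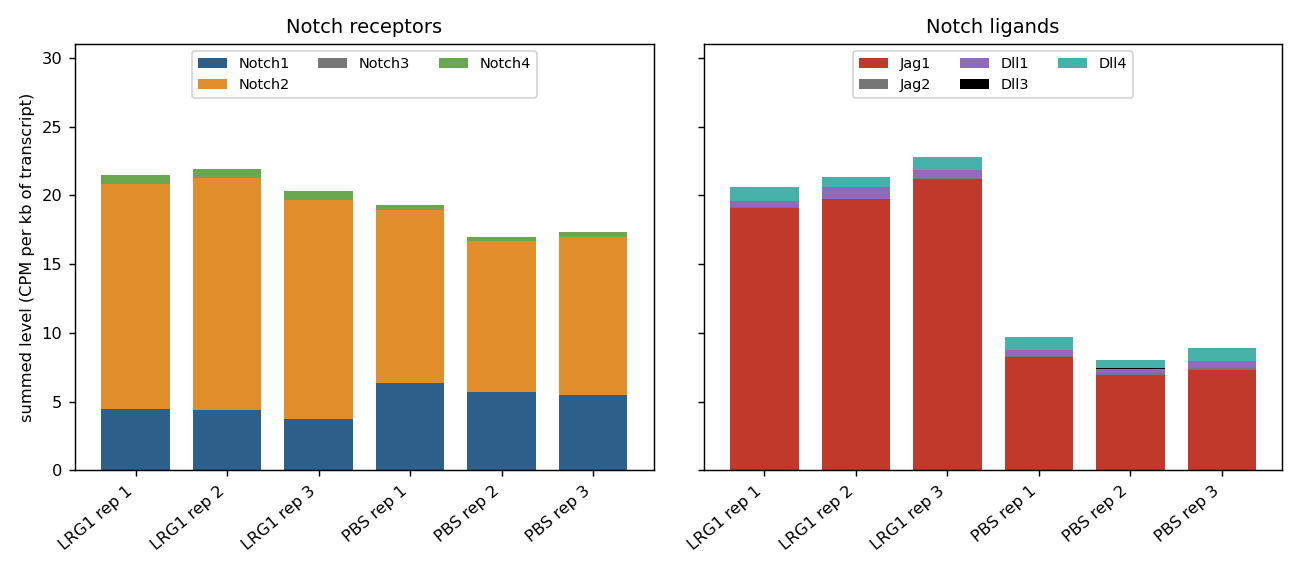
Summed level (CPM per kb of transcript, linear axis from 0) of the Notch receptors (left panel) and ligands (right panel) in each of the 3 LRG1 and 3 PBS libraries, with coloured segments for the genes. The receptor sums lie at 20.3 to 21.9 with LRG1 and 17 to 19.3 with PBS, whereas the ligand sums, mostly Jag1, lie at 20.6 to 22.8 with LRG1 and 8 to 9.67 with PBS.

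Of the target genes, Hes1 alone was expressed at a level that could be tested. Hes1 encodes a basic helix-loop-helix repressor and is the target most widely used as a readout of the pathway. It had 24.3, 24.8 and 26.0 CPM in LRG1 replicates 1 to 3, against 22.6, 19.7 and 22.8 CPM in PBS replicates 1 to 3. The groups did not overlap, but the gap between them was narrow. The log2 fold change was 0.20 (SE 0.074, 95% interval 0.050 to 0.36, edgeR adjusted p = 0.0249). The call was lost with DESeq2 (adjusted p = 0.061), without LRG1 replicate 3 (edgeR adjusted p = 0.0859) and without PBS replicate 2, the lowest PBS library (log2 fold change 0.14, edgeR adjusted p = 0.137), and over all 16 alternatives the adjusted p ran from 0.00356 to 0.137.

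Hey1, a Hes-related repressor, had 0, 5 and 7 reads in LRG1 replicates 1 to 3 and 3, 0 and 2 reads in PBS replicates 1 to 3. Its relative Heyl had 2, 6 and 6 reads with LRG1 and 5, 1 and 2 reads with PBS. Counts of both genes overlapped between the groups. The ratios of the summed counts, 2.17 for Hey1 and 1.59 for Heyl, had counting intervals of 0.713 to 7.88 and 0.621 to 4.36.

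Nrarp, an ankyrin-repeat protein that Notch induces and that limits Notch activity, had 8, 11 and 6 reads in LRG1 replicates 1 to 3 and 11, 8 and 17 reads in PBS replicates 1 to 3. The groups overlapped, and the ratio of summed counts was 0.629 with a counting interval of 0.362 to 1.08. Most of its exonic length, 79.4%, lies opposite Gm38287, so even these few reads are uncertain. Without the filter on low counts, Notch3, Jag2, Hey1, Heyl and Nrarp all missed the threshold, with edgeR adjusted p-values of 0.174 to 0.635.

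**Figure D2:**
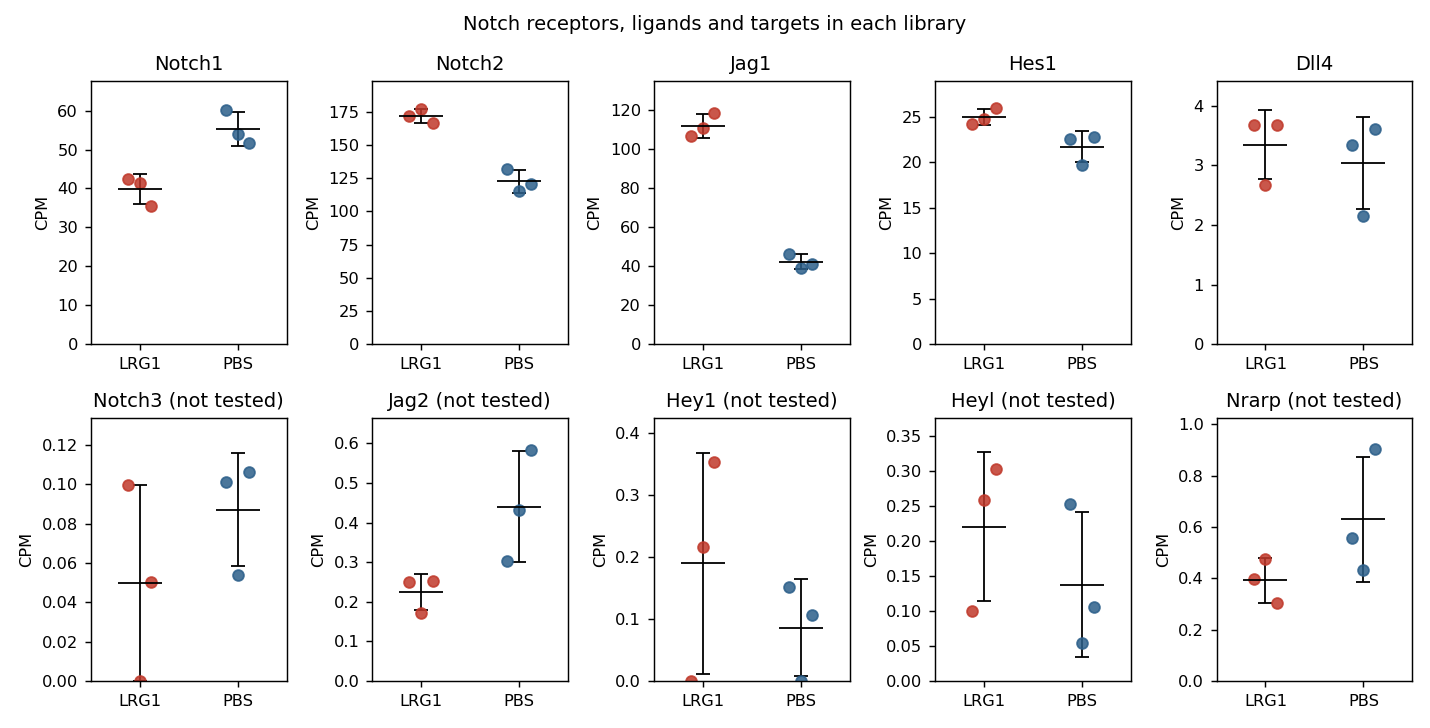
CPM (linear axes from 0, a separate scale in each panel) of the 10 genes in each library, with LRG1 libraries on the left and PBS libraries on the right of each panel, and lines for the mean and SD (n = 3). Jag1, Notch2, Notch1 and Hes1 separate the groups, Dll4 does not, and the 5 genes of the lower row all lie below 1 CPM and were not tested.

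The order of the 10 genes by level differed between the groups. With LRG1, Jag1 stood first at 20.0 ± 1.08 CPM per kb, ahead of Hes1 at 17.0 ± 0.610 and Notch2 at 16.4 ± 0.498 CPM per kb, and the ranges of Hes1 and Notch2 overlapped. With PBS, Hes1 stood first at 14.8 ± 1.17 CPM per kb, followed by Notch2 at 11.7 ± 0.806 and Jag1 at 7.52 ± 0.680 CPM per kb, with no overlap between neighbours. Notch1 came next in either group, at 4.20 ± 0.396 CPM per kb with LRG1 and 5.83 ± 0.468 CPM per kb with PBS (SD, n = 3 each, for all these levels). Dll4 followed at 0.893 CPM per kb with LRG1 and 0.810 CPM per kb with PBS. Nrarp, Hey1, Heyl, Jag2 and Notch3 all stood below 0.25 CPM per kb in both groups, and most neighbours among them overlapped. Averaged over the 6 libraries, Hes1, Notch2 and Jag1 lay above 64.1%, 60.9% and 60.2% of the tested genes in CPM per kb, Notch1 above 34.7% and Dll4 above 12.5%.

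**Figure D3:**
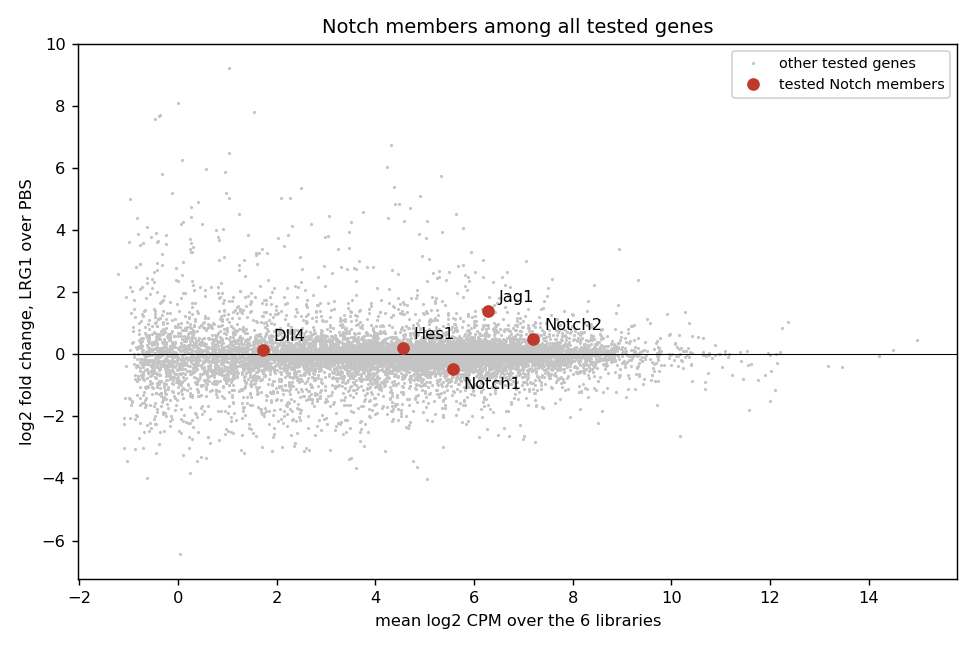
Log2 fold change (LRG1 over PBS) against mean log2 CPM for all 12301 tested genes in grey and the 5 tested Notch genes in red. Jag1 lies at 1.41, clear of most genes of similar level, Notch2 at 0.49, Hes1 at 0.20, Dll4 at 0.13 and Notch1 at -0.47.

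Beyond the 10 genes, a list of 70 other Notch pathway genes was followed by role. Of these, 55 were tested, 22 were higher with LRG1 (40%, beside 25.5% of all tested genes), 11 were lower (20%, beside 25.8%) and 22 did not pass. The median log2 fold change of the 55 was 0.12. The list was drawn up with earlier results of these data known, so these shares describe it and test nothing. Of the 15 that were not tested, 5 (Hes3, Hes5, Hey2, Helt and Il2ra) had no read in any library. The other 10 had few reads in all. Dll3 had 0 with LRG1 and 1 with PBS, Dlk1 had 3 and 4, Dlk2 3 and 6, Dner 1 and 0, and Neurl1b 1 and 8, in the same order of groups. Dtx1 had 3 reads with LRG1 and 6 with PBS, Hes2 0 and 1, Hes7 6 and 8, Ptcra 2 and 3, and Gata2 32 and 22.

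Of the transcripts of 10 receptor-cleaving proteases and gamma-secretase subunits, 5 were higher and 3 lower, and 2 did not pass. These are 50% and 30%, beside 25.5% higher and 25.8% lower among all tested genes. Furin, the convertase that cuts Notch receptors on their way to the cell surface, had 686 ± 23.2 CPM with LRG1 and 426 ± 18.2 CPM with PBS (SD, n = 3 each), a log2 fold change of 0.69 (SE 0.040, edgeR adjusted p = 8.06e-13). The ADAM proteases Adam10 and Adam17 were 1.13-fold and 1.09-fold higher (edgeR adjusted p = 0.000633 and 0.0434). The call of Adam17 lies close to the threshold. Aph1b, a gamma-secretase subunit, was 1.64-fold lower and its close paralog Aph1c 2.62-fold lower at under 1 CPM. Reads may be lost or split between these copies, so their values are uncertain.

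Among 5 glycosyltransferases that tune ligand binding, 1 was higher, 1 lower and 3 not past the threshold. Each call is 20% of the list, near the 25.5% higher and 25.8% lower among all tested genes. Lfng, the lunatic fringe enzyme, was the higher one, at 0.753 ± 0.183 CPM with LRG1 and 0.280 ± 0.0340 CPM with PBS (SD, n = 3 each), a log2 fold change of 1.39 (edgeR adjusted p = 0.00488) that rests on 47 and 16 reads. Of 14 ubiquitin ligases and endocytic regulators, 12 were tested, with 4 higher (33.3%), 3 lower (25%) and 5 not past the threshold. Those shares are also near the ones of all tested genes. Aak1, a kinase of clathrin adaptors, had 93.5 ± 2.99 CPM with LRG1 and 175 ± 7.81 CPM with PBS (SD, n = 3 each), a log2 fold change of -0.90. Neurl1a, a ligase of Notch ligands, had a log2 fold change of -0.88. It shares 9.47% of its exonic length with AC132288.2 on the same strand, a gene that was not counted. Mib1, the main ligand ubiquitin ligase, was 1.09-fold higher, barely past the threshold (edgeR adjusted p = 0.0491). Its relative Mib2 was 1.35-fold higher (edgeR adjusted p = 2.44e-06).

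In the nucleus, the gene for the DNA-binding partner Rbpj did not pass, with 12.7 ± 0.772 CPM with LRG1 and 11.8 ± 0.313 CPM with PBS (SD, n = 3 each). Its log2 fold change had a 95% interval of -0.082 to 0.30 (edgeR adjusted p = 0.345). Of the 7 genes of the nuclear complex, 2 were higher (28.6%, beside 25.5% of all tested genes) and 1 lower (14.3%, beside 25.8%). The other 4 did not pass. The lower one was Kat2b, a histone acetyltransferase, at 74.4 ± 1.38 CPM with LRG1 and 129 ± 3.99 CPM with PBS (SD, n = 3 each), which is 1.73-fold lower. Among 11 corepressors, 5 were higher (45.5%, beside 25.5% of all tested genes), none was lower (beside 25.8%) and 6 did not pass. Ctbp2, a C-terminal binding protein, had 20.5, 22.8 and 22.1 CPM in LRG1 replicates 1 to 3 and 3.54, 2.21 and 2.28 CPM in PBS replicates 1 to 3. Its 8.09-fold higher level was the highest fold among the tested genes of the list after that of Snai1. Ctbp2 shares 5.05% of its exonic length with Fgfr2 on the same strand, and Fgfr2 had 4.26 CPM with LRG1 and 12.1 CPM with PBS.

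The remaining Hes-related genes and the genes known as Notch targets in other tissues had no common direction. Of the 3 tested genes of the Hes, Hey and Bhlhe group, 1 was higher (33.3%, beside 25.5% of all tested genes) and 2 were lower (66.7%, beside 25.8%). Bhlhe40, a repressor that also takes part in the circadian clock, was 1.88-fold higher, at 756 CPM with LRG1 and 403 CPM with PBS. Hes6, which counters Hes1, was 1.16-fold lower. Bhlhe41 was 1.53-fold lower on 67 reads with LRG1 and 93 with PBS (edgeR adjusted p = 0.041), close to the threshold. Of its exonic length, 19% lies opposite Gm43909. Of 5 tested genes known as targets elsewhere, 3 were higher (60%, beside 25.5% of all tested genes), 1 was lower (20%, beside 25.8%) and 1 did not pass. Sox9, a factor of biliary cells, had 84.34 ± 2.004 CPM with LRG1 and 52.6 ± 0.498 CPM with PBS (SD, n = 3 each), a log2 fold change of 0.68. The cyclin gene Ccnd1 was 3.11-fold lower, and 23.4% of its exonic length lies opposite LTO1. Snai1, a repressor of epithelial genes, was 15.5-fold higher, at 19.9 ± 0.105 CPM with LRG1 and 1.28 ± 0.448 CPM with PBS (SD, n = 3 each).

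Because Jag1, Notch2 and Sox9 are also genes of bile duct cells, the 8 cholangiocyte markers are given beside them. They summed to 6071 to 6334 CPM with LRG1 and 5011 to 5323 CPM with PBS, and nearly all of that came from Spp1 and Cldn4. Of the 3 that were tested, Cldn4 was higher, Krt19 was lower and Spp1 did not pass. The claudin gene Cldn4 had 1793.9 ± 35.0 CPM with LRG1 and 690 ± 65.4 CPM with PBS (SD, n = 3 each, edgeR adjusted p = 1.24e-16). The duct keratin Krt19 was lower with LRG1, at 3.24 ± 0.248 CPM, against 18.4 ± 3.07 CPM with PBS (SD, n = 3 each, edgeR adjusted p = 1.24e-13). Among the markers too low to test, Krt7 had 25 reads with LRG1 and 9 with PBS, and Epcam had 48 with LRG1 and 22 with PBS. Cftr and Sctr, markers with little expression in hepatocytes, had 1 read each in the LRG1 group and none in the PBS group. The part of other cells, and of the lower hepatocyte markers, in the changes of Jag1, Notch2 and Notch1 was not tested.

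**Figure D4:**
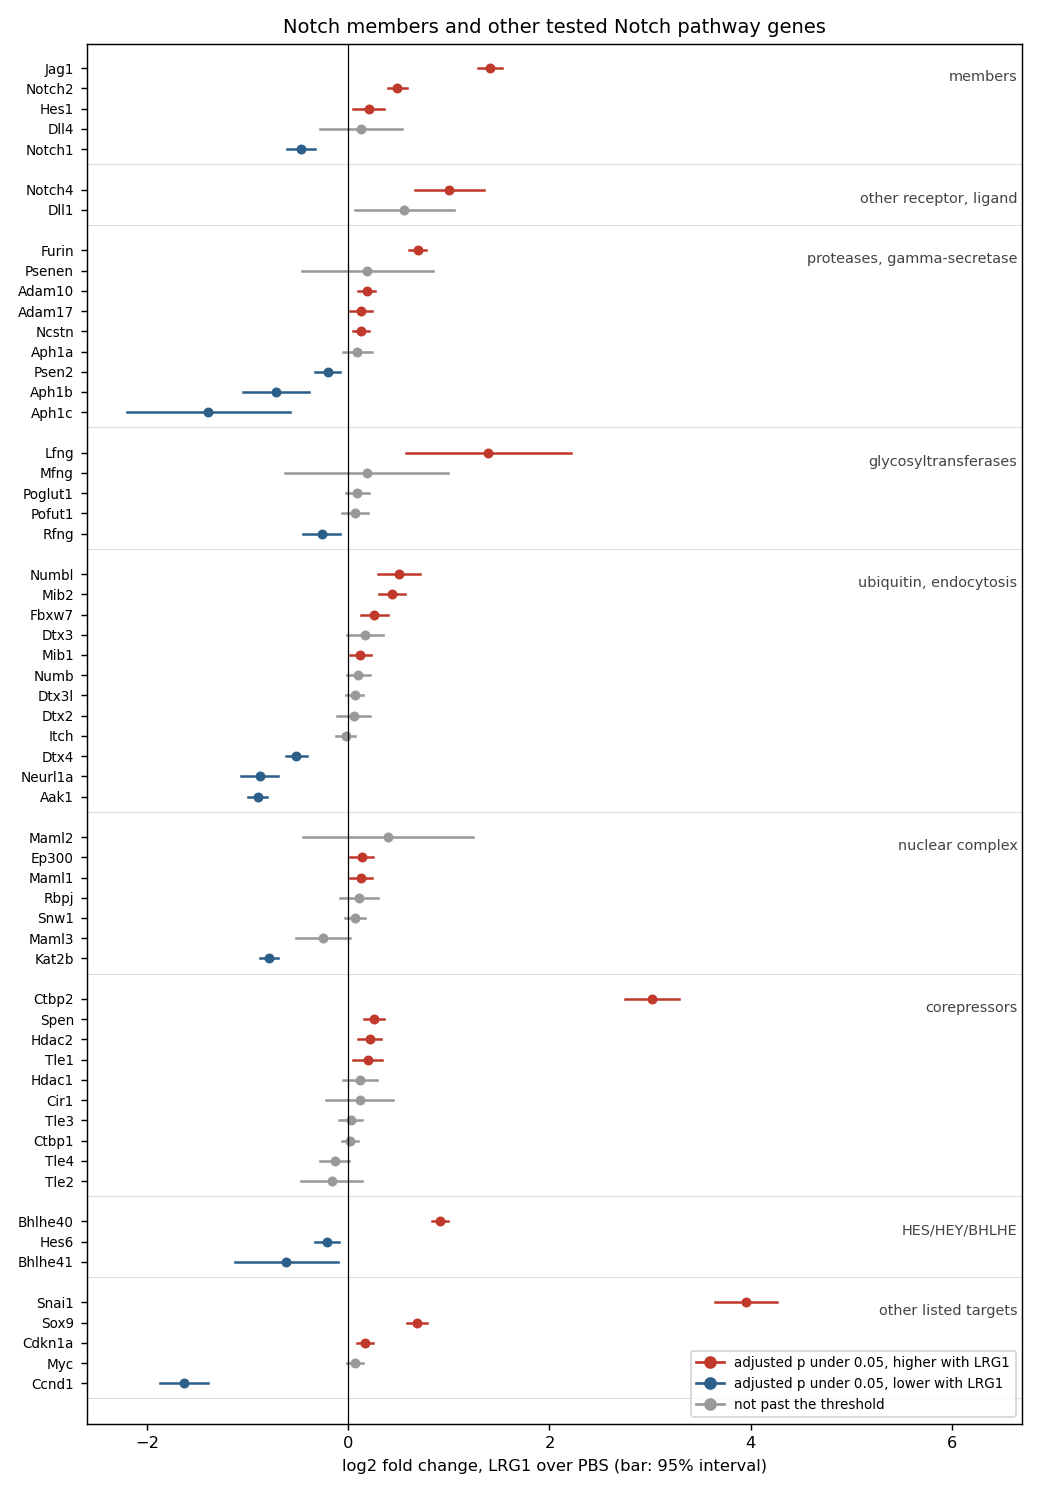
Log2 fold change (LRG1 over PBS) with its 95% interval for the 5 tested Notch genes and the other tested pathway genes reported here, grouped by role, in red where higher and in blue where lower at an adjusted p below 0.05 and in grey otherwise. Most points lie within 1 of zero, and Snai1 (3.95), Ctbp2 (3.02) and Jag1 (1.41) stand farthest to the right.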

How the data were processed

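The submitters' processing notes name TopHat2, HTSeq and bcl2fastq, and mm9 as the genome build. Each deposited table lists unnormalized read counts by gene symbol for a single library, from poly(A)-selected, strand-marking libraries read at 50 nt, per the labels' protocols. Their versions, annotation and strand setting are unknown here. The 5 summary rows of each file stayed out of library sizes and tests: reads in no gene were 8.96 to 10.3% and ambiguous reads 0.258 to 0.280% of uniquely aligned reads, and alignments that were not unique were 58.2 to 59.3% of all row totals.

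Genes were filtered with edgeR's filterByExpr (minimum count 10), which left 12301, and tested with edgeR 4.0.16 (R 4.3.3; TMM, glmQLFit, glmQLFTest) on treatment alone, with Benjamini-Hochberg adjustment and a threshold of 0.05. Standard errors came from the F statistic. CPM uses the TMM-scaled totals of tested genes. Shares were compared by exact permutation over the 6 libraries. Ratios of low counts carry exact 95% intervals. Lengths come from GENCODE M21 and promoters from RefSeq. All 10 members were named, and of the 70 other pathway genes mainly those past the threshold with a log2 fold change of at least 0.58 in size and a mean log2 CPM of at least 1, or, in a role list with none, the gene with the smallest p (Lfng). Some genes outside that rule (the markers, Adam10, Adam17, Aph1c, Mib1, Mib2, Rbpj, Dll1, Hes6 and Bhlhe41) were chosen after their values were seen, and 2 listed genes are counted but not reported here by name. The members and lists were chosen with earlier results of these data known. Alternatives were 3 other scalings, 2 other filters, DESeq2 1.42.0, limma-voom (limma 3.58.1), a robust fit, a replicate block, removal of GC and length trends, and leaving out each library.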

Additional observations from a re-analysis of the deposited data

How the results depend on the processing

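Jag1, Notch2 and Notch1 kept their direction and their call under all 16 alternatives, with log2 fold changes of 1.36 to 1.48, 0.44 to 0.54 and -0.52 to -0.40. Hes1 kept its direction (0.14 to 0.27) and lost its call with DESeq2 and without LRG1 replicate 3 or PBS replicate 2, so the count of higher members was 2 or 3. The cause was not tested. Dll4 turned to -0.062 without PBS replicate 2, ran from there to 0.28 as each library was left out, and passed under no alternative. The higher count of other pathway genes ran from 16 to 23 and the lower count from 9 to 11. The Notch2 share differed by 11.1 to 12.2 percentage points and the Jag1 share by 5.72 to 8.81. Deviations of same-numbered libraries from their group means correlated with r of -0.23, -0.0086 and -0.25. Those of differently numbered libraries ran from -0.14 to 0.33. With 3 libraries per group, such values show no sign of pairing by number but cannot exclude it. With the replicate block, 5890 genes passed in all, against 6317 without it, and the block left 3 members higher, 1 lower, and 18 other pathway genes higher and 10 lower. With under 20 reads per library, Notch3, Jag2, Hey1, Heyl and Nrarp are limited by depth.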
